A study of Mus musculus with 2 samples.

Results

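The genes described here are 35 named enzymes, transporters and kinases of glycolysis, pyruvate use and the pentose phosphate pathway, found by symbol in the table of 24532 genes, and all 35 were present in it. RNA was sequenced from cardiac myofibroblasts, the matrix-secreting cells of injured heart, isolated from C57BL/6 mice 3 days after myocardial infarction. The cells received 12.5 nM of an siRNA against Bcat1 (siBcat1) or 12.5 nM of a control siRNA (siControl) with a lipid reagent, and RNA was taken after 72 hours. Each group had 1 library, so no test was possible, no spread between cultures is known, and every difference below compares 2 libraries. In bulk RNA, fewer cells of a type and less RNA per cell cannot be told apart. Whether cells of several animals were pooled is not stated in the labels.

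Glycolysis splits glucose into pyruvate in the cytosol, and its product either becomes lactate, which leaves the cell through monocarboxylate transporters, or enters mitochondria, where the pyruvate dehydrogenase complex turns it into acetyl-CoA. The pentose phosphate pathway branches off at glucose 6-phosphate and yields NADPH and ribose phosphate. Flux is held mainly at hexokinase, phosphofructokinase and pyruvate dehydrogenase, and pyruvate dehydrogenase is switched off by its own kinases. Activated fibroblasts are known to draw strongly on glycolysis, and many of the genes are induced by hypoxia-inducible factors.

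Counts were put on 1 scale as CPM, counts relative to the size of the library corrected by trimmed mean of M values (TMM) factors, and the log2 fold is siBcat1 over siControl. Brackets give exact 95% intervals, which cover counting error only. Of the 35 genes, 31 averaged 5 CPM or more over both libraries and are called measured. Aldoc, Eno2, Pdk2 and Pfkfb4 lay below that level. Because long transcripts were lower and short ones higher across the whole of these libraries, each fold is also given after subtraction of that trend, called length-adjusted. A fold on the TPM scale is that of the deposited TPM with a pseudocount of 1, which understates the difference of low genes. The median of all genes averaging 5 CPM or more was -0.52 on that scale.

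The siBcat1 library held 104581819 counts and the siControl library 127309329. Bcat1, the cytosolic aminotransferase of leucine, isoleucine and valine, had 99 counts or 0.977 CPM in siBcat1 and 8891 counts or 67.6 CPM in siControl, a log2 fold of -6.11 [-6.41 to -5.83]. All 7 fibroblast markers and all 5 myofibroblast markers examined were measured in the libraries, although their summed level was lower with siBcat1, at 11522 CPM in siBcat1 against 26168 CPM in siControl for the fibroblast list and 8554 CPM in siBcat1 against 17574 CPM in siControl for the myofibroblast list. These sums rest on a few abundant genes. Without Col1a1, Col1a2 and Col3a1, the fibroblast list summed to 846 CPM in siBcat1 and 937 CPM in siControl. Without Fn1 (fibronectin), the myofibroblast list summed to 5600 CPM in siBcat1 and 5616 CPM in siControl. Without its 3 most abundant genes, Fn1, Acta2 and Tagln, that list summed to 332 CPM in siBcat1 and 708 CPM in siControl. Thy1 had a log2 fold of 0.63, Tagln 0.48, Cnn1 -0.02, Tcf21 -0.09, Acta2 -0.11, Dcn -0.15, Pdgfra -0.43 and Postn -1.19. Length-adjusted, these had 0.32, 0.11, -0.09, -0.62, -0.29, -0.45, 0.38 and -1.04 in that order. Fn1, Col1a1, Col1a2 and Col3a1 had log2 folds of -2.02, -1.35, -1.28 and -0.94. Their length-adjusted values were -1.07, -0.63, -0.67 and -0.29. Of 6 macrophage markers, Ptprc and Adgre1 had 0 counts in both libraries, which allows up to 0.0296 CPM in siBcat1 and 0.0228 CPM in siControl, while the summed level of the list was 25.6 CPM in siBcat1 and 8.77 CPM in siControl. Without Lyz2 that list summed to 4.24 CPM in siBcat1 and 3.32 CPM in siControl. Of 6 cardiomyocyte markers, Myh6, Nppa, Actn2 and Pln had 0 counts in both libraries, and the list summed to 10.3 CPM in siBcat1 and 46.4 CPM in siControl, nearly all of it Tnnt2. Only 1 member each of the macrophage (Lyz2), cardiomyocyte, endothelial and smooth muscle lists was measured. The endothelial list summed to 40.9 CPM in siBcat1 and 43.2 CPM in siControl, and the smooth muscle list to 82.1 CPM in siBcat1 and 120 CPM in siControl. The part of these shifts in the results below was not tested.

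**Figure D1:**
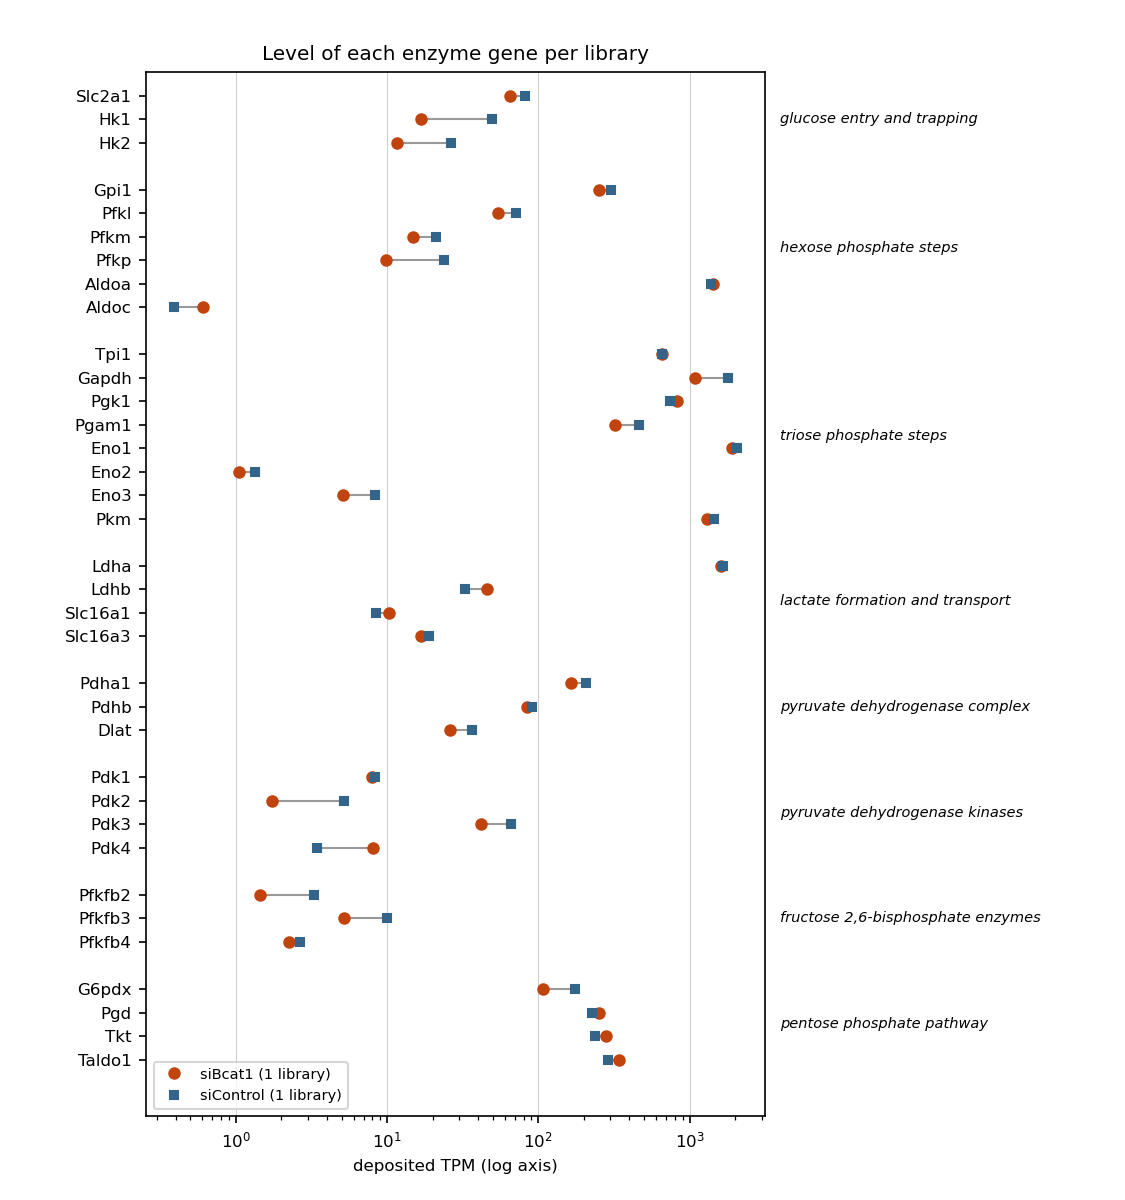
Deposited TPM (a level per transcript length) of the 35 genes on a log axis, with circles for siBcat1 and squares for siControl, 1 library each, grouped by role. Levels span from Aldoc, at 0.604 TPM in siBcat1 and 0.392 in siControl, to Eno1, at 1897 TPM in siBcat1 and 2057 in siControl.

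On the deposited TPM scale the abundant genes were those between aldolase and lactate dehydrogenase. In siBcat1, Eno1 (enolase, 1897 TPM), Ldha (lactate dehydrogenase, 1612), Aldoa (aldolase, 1423), Pkm (pyruvate kinase, 1301) and Gapdh (1085) were the 5 highest, and the same genes were the 5 highest in siControl, where they had 2057, 1668, 1377, 1446 and 1795 TPM in that order. Hexokinases and phosphofructokinases were far scarcer, with summed levels of 28.5 and 78.6 TPM in siBcat1, against 75.9 and 116 TPM in siControl. All 35 genes together took 1.36% of counts in siBcat1 and 1.15% in siControl. As a share of TPM the order was the opposite, with 1.10% in siBcat1 and 1.22% in siControl.

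With a threshold of 1.5-fold, 7 of the 31 measured genes passed it as higher in siBcat1, 4 passed it as lower and the other 20 did not pass. These are 22.6% and 12.9% of the measured genes, beside 17.6% of all 9935 genes of that level for higher and 25.6% for lower. The higher genes were Pdk4, Ldhb, Slc16a1, Taldo1, Tkt, Pgk1 and Pgd, and the lower ones were Hk1, Pfkfb2, Pfkp and Hk2. The median log2 fold was 0.24, and that of all genes was -0.06. At 2-fold only Pdk4 was higher and only Hk1 lower, which is 3.23% in each direction beside 5.58% and 13% of all genes.

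Length adjustment changed which genes passed. Then 4 genes passed 1.5-fold as higher and 4 as lower, 12.9% in each direction beside 12.8% and 14.3% of the 9887 genes with a known length. Pdk4, Slc16a1, Pdk1 and Tkt were the higher ones, and Pfkfb2, Gapdh, Hk1 and Eno3 the lower ones. So 5 of the 11 calls were shared by both scales, those of Pdk4, Slc16a1, Tkt, Hk1 and Pfkfb2. Adjusted by the length that counts and TPM imply, in place of the annotated one, 4 were shared and Pfkfb2 had -0.03. At 2-fold, length-adjusted, 3 genes were higher and 0 lower, beside 4.17% and 5.3% of all genes. The median was 0.19 for the 31 genes and 0.0019 for all genes.

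**Figure D2:**
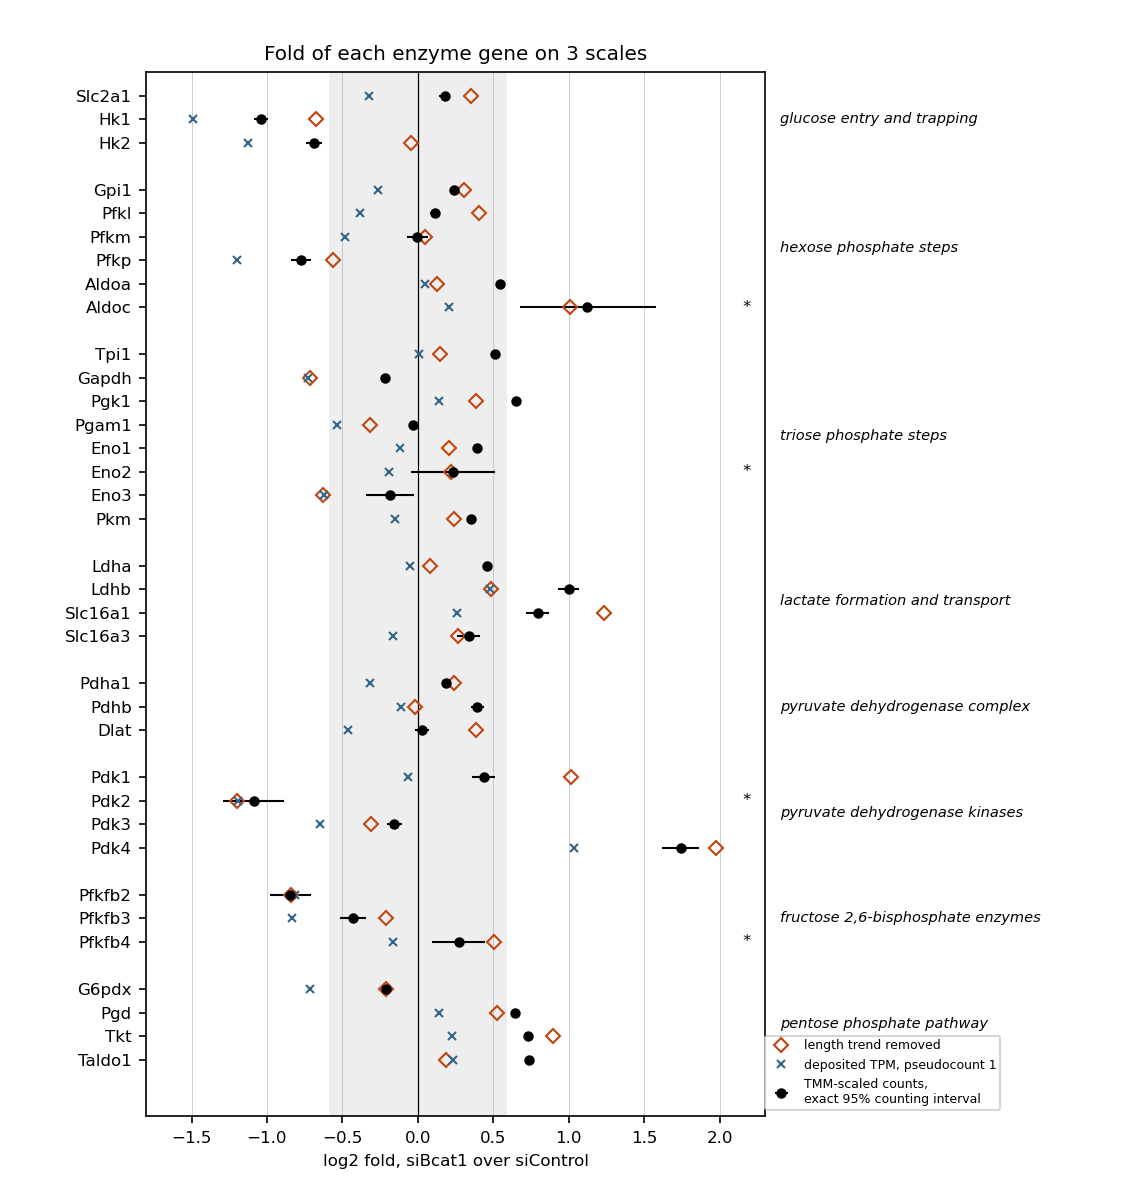
Log2 fold of each gene, siBcat1 over siControl. Filled circles are TMM-scaled counts with exact 95% counting intervals, open diamonds have the length trend removed, crosses are deposited TPM with a pseudocount of 1, the grey band is within 1.5-fold and asterisks mark genes below 5 CPM. Pdk4 lies right of the band and Hk1 left of it on all 3 scales.

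**Figure D3:**
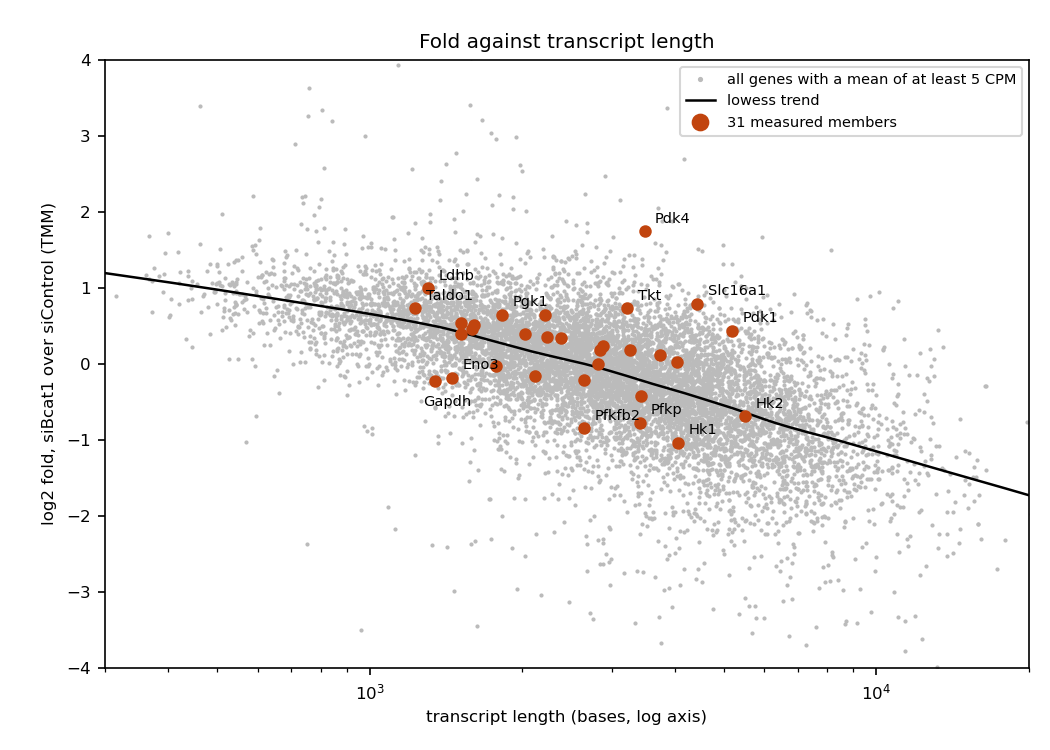
Log2 fold against transcript length for all genes averaging 5 CPM or more (grey, axes clipped), the lowess trend (line) and the 31 measured genes (large points, members in the legend). Hk2 lies on the trend at 5513 bases, while Gapdh and Eno3 lie below it among short transcripts and Pdk4, Slc16a1 and Pdk1 above it among long ones.

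Fold was more closely related to length over all genes than over the 31 measured genes. The Spearman correlation between fold and length was -0.650 over 9886 genes and -0.26 over the 31. These correlations run across genes of the same 2 libraries and carry no test. The measured genes had a median transcript length of 2652 bases, and all genes one of 2968 bases.

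Of the 3 genes of glucose entry and trapping, the transporter had a positive fold in CPM and the kinases negative ones. On the TPM scale all 3 were negative, as were 7824 of all 9935 genes. Slc2a1, which encodes the glucose transporter GLUT1 (chromosome 4, 119108711 to 119137983, plus strand, GRCm38), had 115 CPM in siBcat1 and 102 CPM in siControl, a log2 fold of 0.18 [0.14 to 0.21] 0.35 length-adjusted and -0.32 on the TPM scale. Hk1, the widely expressed hexokinase (chromosome 10, 62268855 to 62379908, minus strand), had 48.0 CPM or 16.9 TPM in siBcat1 and 98.7 CPM or 49.3 TPM in siControl. Its log2 fold was -1.04 [-1.09 to -0.99], which is 2.06-fold lower, and -0.68 length-adjusted.

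Hk2, the inducible, insulin-responsive hexokinase (chromosome 6, 82725025 to 82774454, minus strand), had 44.0 CPM in siBcat1 and 70.8 CPM in siControl, a log2 fold of -0.69 [-0.74 to -0.64]. Its transcript of 5513 bases is long, and the length-adjusted value was -0.04, close to the trend of all genes of that length. Hk1 thus stayed past 1.5-fold after the adjustment and Hk2 did not. On the TPM scale both were past it as lower, as were 46.5% of all genes.

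Promoters were taken from RefSeq (GRCm38.p6) as 250 bases before to 50 bases after each annotated start, and all 35 genes matched, with 52 promoters between them. They were searched on both strands for ACGTG and GCGTG, the core bound by hypoxia-inducible factors, and for TGACNNNGC, the antioxidant response element core bound by NRF2. ACGTG also lies within the E-box CACGTG, where it reads on both strands. Over the 31 measured genes, 17 (54.8%) had ACGTG in at least 1 promoter, beside 30.6% of 7746 genes of at least 5 CPM with a promoter. For GCGTG the count was 23 (74.2%) beside 58.8%, for TGACNNNGC 6 (19.4%) beside 17.4%, and for CACGTG 5 (16.1%) beside 12.4%. By single promoter, ACGTG was in 44.2%, GCGTG in 59.6%, TGACNNNGC in 11.5% and CACGTG in 11.5% of the 52 promoters. The shares of all 32851 promoters, whether or not their gene was measured, were 19.6%, 32.4%, 12.4% and 7.15% in that order. Genes with more annotated starts have more windows in which a match can fall, so shares by gene depend on the number of starts. A match describes letters and is no evidence of binding.

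The promoters of 5 genes with a single annotated start are shown, 5′ to 3′ on the strand of the gene, with matches to the hypoxia and antioxidant response cores on either strand in capitals. Pdk4 is shown because it had the highest fold and Hk2 because it was among the 4 lower genes, Pgk1 and Gapdh because they encode neighbouring steps and had folds of opposite sign, and Slc16a1 because it was past 1.5-fold with and without length adjustment. The windows are chr6:82774405-82774704 on the minus strand for Hk2, chr6:5496229-5496528 on the minus strand for Pdk4, chrX:106186850-106187149 on the plus strand for Pgk1, chr6:125165724-125166023 on the minus strand for Gapdh and chr3:104638414-104638713 on the plus strand for Slc16a1.
Hk2: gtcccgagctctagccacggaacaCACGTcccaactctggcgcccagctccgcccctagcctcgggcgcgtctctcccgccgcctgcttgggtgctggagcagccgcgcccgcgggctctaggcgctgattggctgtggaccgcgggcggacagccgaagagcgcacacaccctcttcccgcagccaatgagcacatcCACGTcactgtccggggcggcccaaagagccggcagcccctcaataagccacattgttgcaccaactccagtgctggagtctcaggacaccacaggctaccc
Pdk4: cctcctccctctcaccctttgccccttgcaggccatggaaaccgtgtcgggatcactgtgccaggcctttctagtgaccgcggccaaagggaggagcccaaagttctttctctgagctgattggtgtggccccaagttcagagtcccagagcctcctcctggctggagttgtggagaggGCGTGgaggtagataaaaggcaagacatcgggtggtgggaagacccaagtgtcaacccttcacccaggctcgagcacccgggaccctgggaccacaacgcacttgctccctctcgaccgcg
Pgk1: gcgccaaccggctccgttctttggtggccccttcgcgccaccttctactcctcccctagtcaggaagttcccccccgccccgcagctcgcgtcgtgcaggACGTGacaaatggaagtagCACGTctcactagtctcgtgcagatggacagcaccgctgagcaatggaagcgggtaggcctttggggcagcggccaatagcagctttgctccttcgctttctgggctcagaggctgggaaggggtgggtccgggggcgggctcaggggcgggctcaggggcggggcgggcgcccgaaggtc
Gapdh: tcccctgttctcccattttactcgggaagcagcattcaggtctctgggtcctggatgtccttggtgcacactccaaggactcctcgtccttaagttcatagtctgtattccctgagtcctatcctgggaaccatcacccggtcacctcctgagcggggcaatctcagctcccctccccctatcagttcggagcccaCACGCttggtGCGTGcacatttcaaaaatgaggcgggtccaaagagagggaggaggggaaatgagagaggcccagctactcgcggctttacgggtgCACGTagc
Slc16a1: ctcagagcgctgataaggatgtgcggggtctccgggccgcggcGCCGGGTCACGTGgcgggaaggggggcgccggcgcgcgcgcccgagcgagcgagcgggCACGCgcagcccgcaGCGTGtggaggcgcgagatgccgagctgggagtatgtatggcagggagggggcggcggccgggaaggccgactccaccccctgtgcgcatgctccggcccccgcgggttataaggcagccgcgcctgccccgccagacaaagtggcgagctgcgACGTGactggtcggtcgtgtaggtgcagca

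ACGTG was found in the promoters of Hk2, Pgk1, Gapdh and Slc16a1 and not in that of Pdk4, which held 1 GCGTG. Hk2, with 2 matches, was among the lower genes, and Pgk1, with 2, and Slc16a1, with 3, were among the higher ones. Length-adjusted, Hk2 had -0.04 and Pgk1 0.38, within 1.5-fold, and Slc16a1 had 1.23. Of the 3 in Slc16a1, 2 are the same E-box read on both strands. The Slc16a1 window also held the only TGACNNNGC of these 5, on the opposite strand and running into an E-box.

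At the hexose phosphate steps, 4 of 5 measured genes lay within 1.5-fold, as did 5641 of all 9935 genes. Gpi1, glucose phosphate isomerase, had 501 CPM in siBcat1 and 424 CPM in siControl, a log2 fold of 0.24 [0.22 to 0.26], 0.31 length-adjusted and -0.26 on the TPM scale. Aldoa (chromosome 7, 126795234 to 126800751, minus strand), the main aldolase here, had 1502 CPM in siBcat1 and 1031 CPM in siControl, a log2 fold of 0.54 [0.53 to 0.55] and 0.13 length-adjusted. Aldoc, the brain-type aldolase, had only 114 counts in siBcat1 and 68 in siControl, a log2 fold of 1.12 [0.68 to 1.58].

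The 3 phosphofructokinase genes, whose products commit sugar to glycolysis, parted. Pfkp, the platelet type (chromosome 13, 6579768 to 6648777, minus strand), had 27.0 CPM in siBcat1 and 46.2 CPM in siControl, a log2 fold of -0.78 [-0.84 to -0.71] and -0.56 length-adjusted. Pfkl, the liver type, had 137 CPM in siBcat1 and 127 CPM in siControl, a log2 fold of 0.11 [0.08 to 0.15], 0.40 length-adjusted and -0.39 on the TPM scale. Pfkm, the muscle type, had 29.2 CPM in siBcat1 and 29.3 CPM in siControl, with a fold interval of -0.07 to 0.07. Pfkl was the main form on the TPM scale and Pfkp took a smaller part with siBcat1, 12.5% of the family against 20.6% in siControl. Pfkp shares 748 exonic bases with Pitrm1 on the opposite strand, and Pitrm1 had 7283 counts in siBcat1 and 15026 in siControl. Strand use in counting is not given in the sources used here, so reads of these genes may have been mixed.

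At the triose phosphate steps, 4 of 7 measured genes had a positive log2 fold in CPM, and of these Eno1 and Pkm had a negative one on the TPM scale. Of all 9935 genes, 4648 had a positive fold in CPM and 7824 a negative one on the TPM scale. Pgk1, phosphoglycerate kinase (chromosome X, 106187100 to 106203699, plus strand), had 1027 CPM in siBcat1 and 656 CPM in siControl, a log2 fold of 0.65 [0.64 to 0.66] and 0.38 length-adjusted. Tpi1, triose phosphate isomerase, had 724 CPM in siBcat1 and 508 CPM in siControl, a log2 fold of 0.51 [0.50 to 0.53]. Eno1 had 2305 CPM in siBcat1 and 1760 CPM in siControl, at 0.39 [0.38 to 0.40], and Pkm had 2165 CPM in siBcat1 and 1695 CPM in siControl, at 0.35 [0.34 to 0.36]. Length-adjusted, Tpi1, Eno1 and Pkm had 0.14, 0.21 and 0.24, and on the TPM scale 0.0054, -0.12 and -0.15.

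Gapdh and Pgam1 had negative folds. Gapdh, the dehydrogenase between triose phosphate isomerase and phosphoglycerate kinase, often used to normalise expression (chromosome 6, 125161715 to 125166467, minus strand), had 1055 CPM or 1085 TPM in siBcat1 and 1230 CPM or 1795 TPM in siControl. Its log2 fold was -0.22 [-0.23 to -0.21] and, length-adjusted, -0.72. Pgam1, phosphoglycerate mutase, had 401 CPM in siBcat1 and 410 CPM in siControl, a log2 fold of -0.03 [-0.05 to -0.01] and -0.32 length-adjusted.

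Ratios between genes of a library need no scaling. For each Tpi1 count there were 1.46 Gapdh counts in siBcat1 and 2.42 in siControl, and for each Pgk1 count there were 1.03 Gapdh counts in siBcat1 and 1.88 in siControl. Against Aldoa the numbers were 0.703 in siBcat1 and 1.19 in siControl, and against Ldha 0.590 in siBcat1 and 0.944 in siControl. The log2 ratio of Gapdh to these 4 abundant genes differed by -0.87 to -0.68 between the libraries, siBcat1 minus siControl, with transcripts of 1347 bases for Gapdh and 1511 to 1825 for the others. Against Pgam1 it differed by -0.19. These pairs were chosen after their values had been seen. Retrotransposed copies of Gapdh and other glycolytic genes are common in the mouse genome, and how reads that match several places were handled is not given in the sources used here.

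Eno3, the muscle enolase, had 541 counts in siBcat1 and 797 in siControl, a log2 fold of -0.18 [-0.34 to -0.02] and -0.63 length-adjusted. Eno2, the neuronal form, had 205 counts in siBcat1 and 226 in siControl, below the minimum. Eno1 has a near-identical intronless copy, Eno1b, which was listed with 13429 counts in siBcat1 and 10467 in siControl, yet with 0.0516 TPM in siBcat1 and 0.0208 in siControl. The deposited counts and TPM of this row do not go together. With both rows summed the Eno1 log2 fold was 0.41.

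All 4 lactate genes had positive folds in CPM, beside 4648 of all 9935 genes. Ldha and Slc16a3 had negative ones on the TPM scale, as did 7824 of all 9935 genes, whose median there was -0.52. Ldha, the muscle-type subunit, which favours lactate formation (chromosome 7, 46841475 to 46855627, plus strand), had 1789 CPM in siBcat1 and 1303 CPM in siControl, a log2 fold of 0.46 [0.45 to 0.47], 0.08 length-adjusted and -0.05 on the TPM scale. Ldhb, the heart-type subunit (chromosome 6, 142490249 to 142507957, minus strand), had 40.8 CPM in siBcat1 and 20.4 CPM in siControl, a log2 fold of 1.00 [0.93 to 1.07] and 0.48 length-adjusted. Ldha still made up 97.2% of the summed TPM of this pair in siBcat1 and 98.1% in siControl.

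Of the lactate transporters, Slc16a1 (MCT1, chromosome 3, 104638668 to 104658462, plus strand) had 31.4 CPM in siBcat1 and 18.1 CPM in siControl, a log2 fold of 0.79 [0.72 to 0.87]. Its transcript has 4426 bases, a length at which the trend was below 0, and the length-adjusted value was 1.23. Slc16a3 (MCT4), the exporter of glycolytic cells, had 28.2 CPM in siBcat1 and 22.3 CPM in siControl, a log2 fold of 0.34 [0.26 to 0.41] and 0.27 length-adjusted. Slc16a1 took 38.3% of the summed TPM of this pair in siBcat1 and 31.1% in siControl. Its share of the summed counts was 52.7% in siBcat1 (exact 95% interval 51.4 to 53.9) and 44.8% in siControl (43.4 to 46.1), so the shares differed beyond counting error.

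The pyruvate dehydrogenase subunits stayed within 1.5-fold on all 3 scales plotted, and all 3 had positive folds in CPM and negative ones in TPM. Of all 9935 genes, 4648 were positive in CPM and 7824 negative in TPM. Within 1.5-fold lay 5641 of all 9935 genes in CPM, 4964 on the TPM scale and, length-adjusted, 7206 of 9887. Pdha1, the catalytic alpha subunit that the kinases phosphorylate, had 324 CPM in siBcat1 and 285 CPM in siControl, a log2 fold of 0.18 [0.16 to 0.20]. Pdhb, its beta partner, had 0.39 [0.35 to 0.44] and Dlat, the acetyltransferase core, had 0.03 [-0.02 to 0.07]. Length-adjusted, Pdha1, Pdhb and Dlat had 0.24, -0.02 and 0.38.

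The 4 kinases that inactivate this complex had log2 folds of -1.09 to 1.74, and its 3 subunits 0.03 to 0.39. Pdk4, known from fasting and fatty acid use (chromosome 6, 5483351 to 5496309, minus strand), had 1936 counts, 19.1 CPM or 8.09 TPM in siBcat1 and 751 counts, 5.71 CPM or 3.43 TPM in siControl. Its log2 fold of 1.74 [1.62 to 1.87], 3.34-fold higher, was the largest of the 35 genes, and it was 1.97 length-adjusted and 1.04 with TPM and a pseudocount of 1. Pdk2, a widely expressed kinase (chromosome 11, 95026258 to 95041354, minus strand), had 272 counts or 2.69 CPM in siBcat1 and 750 counts or 5.71 CPM in siControl. It lay below the expression minimum, with a log2 fold of -1.09 [-1.29 to -0.89] and -1.20 length-adjusted. In siControl Pdk4 and Pdk2 thus had nearly the same count, and in siBcat1 there were 7.12 Pdk4 counts for each Pdk2 count. This pair holds the highest and lowest folds of the 4 kinases and was chosen with earlier results of these data known.

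Pdk1, a known hypoxia-inducible kinase (chromosome 2, 71873224 to 71903858, plus strand), had 28.0 CPM in siBcat1 and 20.7 CPM in siControl, a log2 fold of 0.43 [0.36 to 0.51] and, with its transcript of 5185 bases, 1.02 length-adjusted, while the TPM scale gave -0.06. Pdk3 had 57.4 CPM in siBcat1 and 64.0 CPM in siControl, a log2 fold of -0.16 [-0.20 to -0.11]. Pdk3 was the main kinase transcript in both libraries, with 70.3% of the family's TPM in siBcat1 and 79.7% in siControl. Pdk4 made up 13.6% in siBcat1 and 4.12% in siControl.

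**Figure D4:**
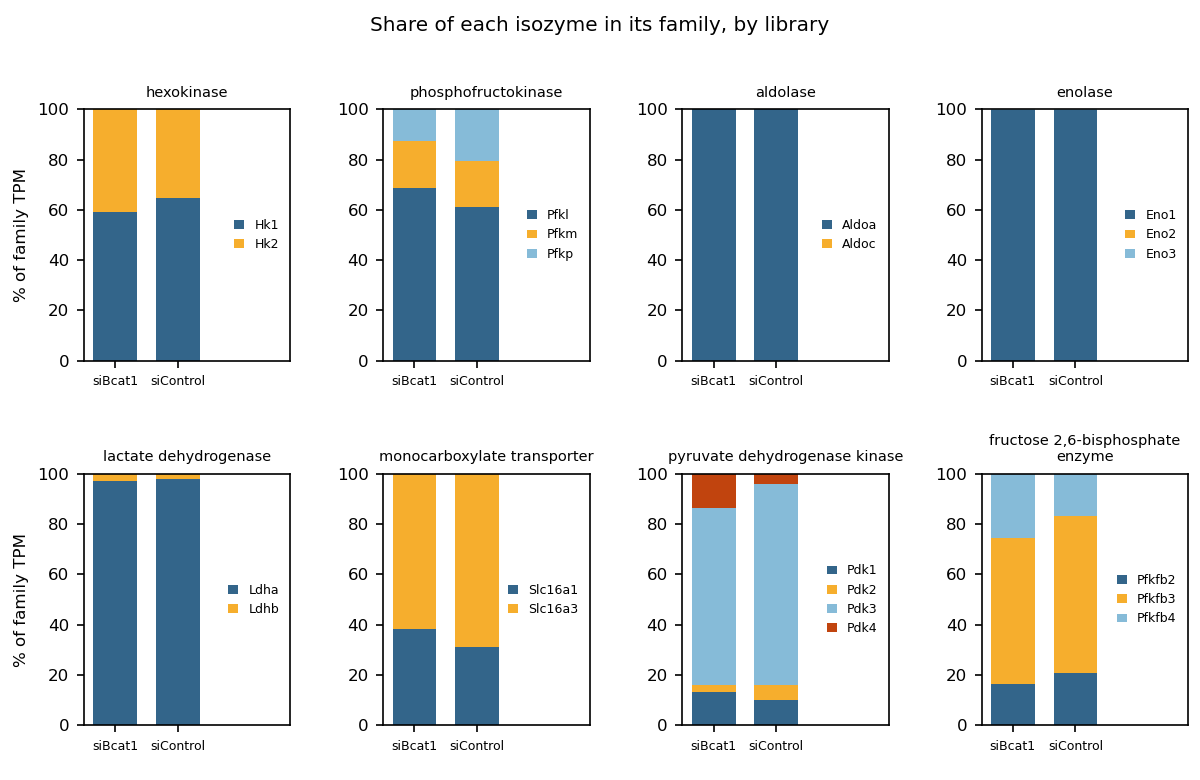
Share of each isozyme in the summed deposited TPM of its family, siBcat1 left and siControl right, 1 library each. Shares differ by 9.44 percentage points for Pdk4, 8.74 for Pfkfb4, -8.11 for Pfkp, 7.20 for Slc16a1 and 5.74 for Hk2, siBcat1 minus siControl, while Aldoa, Eno1 and Ldha fill at least 97.2% of their families in both libraries.

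Pfkfb enzymes make and remove fructose 2,6-bisphosphate, the strongest activator of phosphofructokinase. Pfkfb3, the form with the highest kinase activity, had 17.8 CPM in siBcat1 and 24.0 CPM in siControl, a log2 fold of -0.43 [-0.51 to -0.35] and -0.21 length-adjusted. Its counts and TPM imply 5008 bases where 3425 are annotated, and adjusted by the implied length the sign turned, to 0.11. Pfkfb2, the heart form (chromosome 1, 130689182 to 130729253, minus strand), had 6.26 CPM in siBcat1 and 11.2 CPM in siControl, a log2 fold of -0.85 [-0.98 to -0.71] and -0.84 length-adjusted. The length that its counts and TPM imply, 6704 bases, is far above the 2652 bases annotated, and adjusted by the implied length the value was -0.03. It shares 1262 exonic bases on the same strand with Gm29427, which was not analysed here. Pfkfb4 had 523 counts in siBcat1 and 563 in siControl, and with a mean below 5 CPM it was not measured. On the TPM scale Pfkfb4 took 25.3% of the family in siBcat1 and 16.6% in siControl, Pfkfb3 58.4% in siBcat1 and 62.7% in siControl, and Pfkfb2 16.3% in siBcat1 and 20.7% in siControl.

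Of the 4 pentose phosphate genes, the 3 after the entry step passed 1.5-fold as higher, beside 17.6% of all genes, and length-adjusted only Tkt did, beside 12.8% of all genes. G6pdx, the NADPH-forming enzyme of entry (chromosome X, 74409483 to 74429194, minus strand), had 191 CPM in siBcat1 and 221 CPM in siControl, a log2 fold of -0.21 [-0.24 to -0.19] and -0.21 length-adjusted. Pgd, the next NADPH-forming enzyme (chromosome 4, 149149991 to 149166771, minus strand), had 381 CPM in siBcat1 and 244 CPM in siControl, a log2 fold of 0.64 [0.62 to 0.67] and 0.53 length-adjusted. For each Pgd count there were 0.501 G6pdx counts in siBcat1 and 0.907 in siControl.

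In the branch that exchanges sugar carbons with glycolysis, Tkt, transketolase (chromosome 14, 30548359 to 30574720, plus strand), had 616 CPM in siBcat1 and 371 CPM in siControl, a log2 fold of 0.73 [0.71 to 0.75] and 0.89 length-adjusted. Taldo1, transaldolase (chromosome 7, 141392199 to 141402968, plus strand), had 297 CPM in siBcat1 and 178 CPM in siControl, a log2 fold of 0.74 [0.71 to 0.76] but only 0.19 length-adjusted, since its transcript of 1229 bases is short. On the TPM scale Pgd, Tkt and Taldo1 were also higher in siBcat1, at 250, 279 and 340 TPM, against 227, 239 and 290 TPM in siControl, while G6pdx had 107 TPM in siBcat1 and 175 TPM in siControl. G6pdx shares 418 exonic bases with Ikbkg on the opposite strand, which had 3219 counts in siBcat1 and 4794 in siControl.

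Other genes of these pathways came from a list of 47, of which 25 were measured. Of these 6 (24.0%) passed 1.5-fold as higher and 4 (16.0%) as lower, beside 17.6% and 25.6% of all genes, with a median log2 fold of 0.12. With a length known for 24, 4 (16.7%) were higher and 2 (8.33%) lower after adjustment, beside 12.8% and 14.3% of all genes, with a median of 0.12. Pgls, the lactonase between G6pdx and Pgd, had 132 CPM in siBcat1 and 54.5 CPM in siControl, a log2 fold of 1.28 and 0.61 length-adjusted, and Rpia, ribose phosphate isomerase, had 29.8 CPM in siBcat1 and 13.1 CPM in siControl, at 1.19 and 0.92 length-adjusted. H6pd, which oxidises glucose 6-phosphate within the endoplasmic reticulum, had 114 CPM in siBcat1 and 307 CPM in siControl, at -1.42 and -0.94 length-adjusted.

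Around pyruvate, Mpc2, a subunit of the mitochondrial pyruvate carrier, had 78.7 CPM in siBcat1 and 36.4 CPM in siControl, a log2 fold of 1.11 and 0.47 length-adjusted, whereas its partner Mpc1 had 0.12 and -0.55 length-adjusted. Pcx, pyruvate carboxylase, had 23.2 CPM in siBcat1 and 41.5 CPM in siControl, at -0.84 and -0.47 length-adjusted. Pdpr, the regulatory subunit of pyruvate dehydrogenase phosphatase, had 51 counts in siBcat1 and 1735 in siControl, a log2 fold of -4.71 [-5.14 to -4.31] and -4.18 length-adjusted, the lowest value of all lists examined here. With deposited TPM and a pseudocount of 1 it had -3.06. Pdp1, a catalytic subunit of the same phosphatase, had 0.42.

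**Figure D5:**
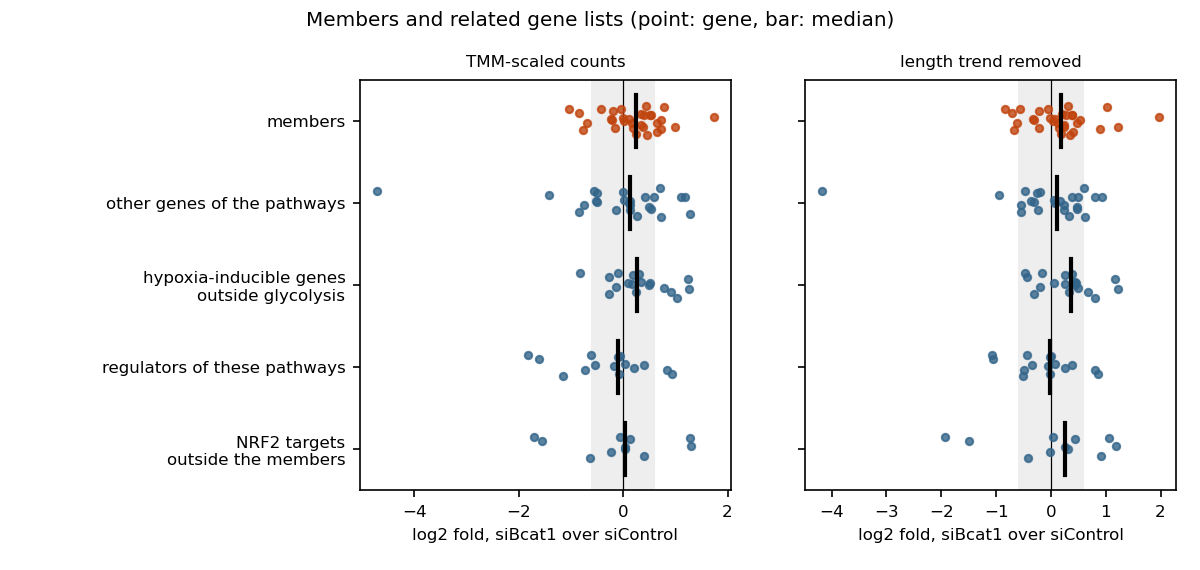
Log2 folds of measured genes in the 35-gene set and in 4 related lists, with TMM-scaled counts at left and the length trend removed at right. Points are genes, bars are medians and the grey band is within 1.5-fold. The members are the 35 genes, and medians lie between -0.10 and 0.28 at left and between -0.02 and 0.36 at right, and Pdpr is the isolated point near the left edge.

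Hypoxia-inducible genes outside glycolysis had a median of 0.28, with 5 of 18 measured genes (27.8%) past 1.5-fold as higher and 1 (5.56%) as lower, beside 17.6% and 25.6% of all genes. Length-adjusted, the median was 0.36, with 4 (22.2%) higher and 0 lower, beside 12.8% and 14.3% of all genes. Fam162a, Hilpda, Angptl4, Higd1a and Ak4 had 1.26, 1.25, 1.04, 0.91 and 0.79 in that order, and Kdm3a, a histone demethylase, had -0.82. Length-adjusted, the same genes had 0.45, 0.50, 1.23, 0.80, 1.18 and -0.30.

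Among regulators of these pathways, 2 of 15 measured genes (13.3%) were past 1.5-fold as higher and 5 (33.3%) as lower, beside 17.6% and 25.6% of all genes, with a median of -0.10. Length-adjusted, 2 were higher and 2 lower (13.3% each), beside 12.8% and 14.3% of all genes, with a median of -0.02. Hif1a, the oxygen-regulated factor, had 194 CPM in siBcat1 and 283 CPM in siControl, a log2 fold of -0.54 and -0.05 length-adjusted. Its relative Epas1 had -1.16, its partner Arnt -0.74 and its inhibitor Hif1an -1.83, and length-adjusted they had -0.51, -0.50 and -1.07. Mlxip, a glucose-sensing factor, had -1.61 and -1.06 length-adjusted. Myc, which activates many glycolytic genes, had 27.0 CPM in siBcat1 and 14.1 CPM in siControl, at 0.94 and 0.86 length-adjusted, and Arrdc4, a glucose-responsive arrestin, had 0.84 and 0.80.

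NRF2 is the activator of antioxidant genes and also of pentose phosphate genes. Of 11 of its other known targets, all measured, 2 (18.2%) were past 1.5-fold as higher and 3 (27.3%) as lower, beside 17.6% and 25.6% of all genes, with a median of 0.03. Length-adjusted, 3 (27.3%) were higher and 2 (18.2%) lower, beside 12.8% and 14.3% of all genes, with a median of 0.25. Nqo1 and Prdx1 had 1.31 and 1.28, and Gclm had 0.40, while Txnrd1, Hmox1 and Slc7a11 had -1.70, -1.55 and -0.64. Length-adjusted, Nqo1, Prdx1 and Gclm had 0.91, 1.18 and 1.06, and Txnrd1, Hmox1 and Slc7a11 had -1.49, -1.93 and 0.44, so that Slc7a11 had the opposite sign. The counts and TPM of Gclm imply 2072 bases where 5589 are annotated, and adjusted by the implied length Gclm had 0.23 and did not pass. Prdx1, with 1417 bases implied and 2294 annotated, then had 0.83.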

How the data were processed

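Messenger RNA libraries were built with a stranded Illumina kit, per the labels' protocols. Per the submitters' processing notes, the tools were HISAT2 and StringTie along with FastQC and Trimmomatic, on mm10. Not given in the sources used here: what each did, its version and settings, and how strand and read pairs were counted. Raw read counts for each gene make up the deposited table, and the deposited TPM values are scaled for transcript length and depth, per the file headers. Groups came from the treatment labels.

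Counts were scaled with TMM factors (0.969 for siBcat1, 1.03 for siControl) from edgeR 4.0.16 in R 4.3.3. Fold intervals are exact (Clopper-Pearson, 95%) from the siBcat1 share of both counts. Reads amplified by PCR are not independent molecules, so these intervals cover counting error only. With 1 library a group no test was run. Genes needed a mean of 5 CPM. Transcript lengths came from GENCODE M21 (GRCm38) by RefSeq accession, the median over a gene's listed transcripts, and the smooth trend of the folds against log2 length was subtracted (lowess, fraction 0.3, 3 iterations, statsmodels 0.14.6). It accounted for 37.5% of the variance of the folds. The trend was known from earlier results. Isozyme shares used TPM. Gene coordinates are from GENCODE M21. The calculations were tested on simulated data. DESeq2 1.42.0 gave size factors as an alternative.

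The genes, lists and comparisons were chosen with earlier results of these data known. The text names Bcat1, all 35 genes and, per list, up to 6 measured genes with the largest absolute log2 fold. Outside that rule, Mpc1, Pdp1, Hif1a and single cell type markers were named after their values had been seen, and Eno1b, Pitrm1, Ikbkg and Gm29427 because they share sequence or exonic bases with a gene described. Intervals came from scipy 1.17.1 and tables from pandas 2.3.3 under Python 3.11.15. Protein sequences were not used here.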

Additional observations from a re-analysis of the deposited data

How the results depend on the processing

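No paired analysis was possible because each group has 1 library, and for the same reason no library could be left out. DESeq2 size factors left all 11 calls in place. Library totals gave 5 higher and 4 lower genes, beside 14.1% and 29.3% of all genes. Upper-quartile factors, which shifted the median of all genes by 0.13, gave 9 and 3, beside 23.4% and 20.7%. With deposited TPM, which shifted that median by -0.41 with a pseudocount of 1 and by -0.43 with 0.1, 1 gene was past 1.5-fold as higher and 8 as lower with either pseudocount and a minimum mean of 5 TPM, of 30 genes that met it, beside 4.26% and 43.4% of all genes with the larger pseudocount and 4.57% and 44.9% with the smaller. On this scale, 11 of the 31 measured genes changed sign (Slc2a1, Gpi1, Pfkl, Eno1, Pkm, Ldha, Slc16a3, Pdha1, Pdhb, Dlat and Pdk1). None of the 11 genes past 1.5-fold changed sign under the scaling, TPM or length alternatives. Removal of the length trend gave 4 higher and 4 lower genes, beside 12.8% and 14.3% of all genes. Removal of the trend on implied length gave 4 higher and 2 lower, beside 12.3% and 13.7%. The trend on implied length turned the signs of Pfkm, Pdhb and Pfkfb3, and the annotated one those of Pfkm and Pdhb. A threshold of 2-fold gave 1 higher and 1 lower, beside 5.58% and 13% of all genes.

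The median of the measured genes of the 35 was 0.15 with library totals, 0.37 with upper-quartile factors, -0.21 and -0.22 with TPM and pseudocounts of 1 and 0.1, 0.19 and 0.16 with the annotated and implied length trends removed, and 0.29 at a minimum of 20 CPM, and the mean was 0.19. In the order library totals, upper-quartile factors and both TPM pseudocounts, the other pathway genes had medians of 0.032, 0.25, -0.37 and -0.38, the hypoxia-inducible genes 0.18, 0.44, -0.23 and -0.23, the regulators -0.19, 0.032, -0.58 and -0.60, and the NRF2 targets -0.060, 0.16, -0.44 and -0.47. With annotated and implied length trends removed, the hypoxia-inducible genes had 0.36 and 0.40, the regulators -0.022 and 0.00052, and the NRF2 targets 0.25 and 0.23. At a minimum of 1 CPM and with none, the hypoxia-inducible genes had 0.35 and 0.33, and the regulators -0.17 and -0.34. The cause of these shifts was not tested.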

Other observations

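The length that counts and TPM of a gene imply was within 1.5-fold of the annotated length for every member except Pfkfb2, where it was 2.53 times as long, and for Slc2a1 it was 0.789 times as long. Among the other genes named, it was 0.371 times the annotated length for Gclm, 0.576 for Angptl4, 0.590 for Pdpr, 0.618 for Prdx1, 1.52 for Bcat1 and 1.66 for Pdp1. For Eno1b no annotated length was matched.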
